A study of Rattus norvegicus with 16 samples.

Results

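The comparison described here sets 4 libraries of rat infarct zone from hearts treated with a soft hydrogel after coronary ligation (MI_soft 1 to 4) against 4 libraries of infarct zone from ligated hearts without a hydrogel (MI 1 to 4). These 8 libraries, chosen by their group labels alone, are 8 of the 16 in the series. The other 8 are 4 Sham libraries (control surgery) and 4 MI_stiff libraries (ligation and a stiff hydrogel), which entered the statistical fit and are given as reference levels. Both groups compared carry the same injury, ligation of the left anterior descending coronary artery, and differ in the labels by the gel alone. Nothing in the labels gives the strain, age or sex of the rats, the time of sampling, the material of the gel or whether MI hearts received a sham injection. The extraction protocol mentions MI/R, which often stands for ischaemia followed by reperfusion, and whether the vessel was reopened is not known. No label ties the 4 libraries of a group to separate rats. The p-values therefore measure only how far these samples spread, and part of that spread may be technical.

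After a coronary artery is closed, heart muscle cells downstream die, myeloid cells enter to clear them, and fibroblasts lay down collagen that becomes the scar. Lymphatic and blood vessels regrow around the injured zone, and the surviving muscle lowers its genes of calcium handling and fat oxidation. An injectable hydrogel is a water-swollen polymer network placed in the heart wall, where it can carry mechanical load and is also a foreign body that macrophages meet. The comparison asks how expression in the ligated heart differs when the softer of both gels has been injected.

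Some of these libraries stood apart from their own group, which bears on every result that follows. Library totals were 10940685 to 14456188 expected counts over 17085 genes. MI 2, 3 and 4 had 10470, 10958 and 11283 genes with a count, against 12820 in MI 1, 12577 to 12819 in MI_soft 1 to 3 and 11785 in MI_soft 4. The group means of 11383 ± 1015 and 12467 ± 465 genes (SD, n = 4 each) differed by 1084, with an exact two-sided permutation p of 0.143, where 70 regroupings allow no p under 0.0286. Across genes, which are not independent replicates, the correlation of log2 CPM between MI 1 and MI_soft 1, 2 or 3 was 0.957 to 0.964. That between MI 1 and MI 2, 3 or 4 was 0.873 to 0.898. MI 2, 3 and 4 were no closer to each other, at 0.868 to 0.909. MI_soft 1, 2 and 3 correlated with each other at 0.965 to 0.977, and MI_soft 4 with these at 0.8545 to 0.892. Of the tested genes, 219 had a count of 0 in each of MI 2, 3 and 4, and 121 of these had at least 5 counts in every Sham library. The share of counts from the mitochondrial genome was 39.7% ± 8.20 in MI and 36.6% ± 4.21 in MI_soft (SD, n = 4; exact permutation p = 0.571). Among genes of heart muscle, Tnnt2, Tnni3 and Actc1 were at 1830 CPM or more in all 8 libraries (CPM, counts scaled to a common library total). Myl2, the regulatory light chain of ventricular myosin and usually among its most abundant transcripts, was at 6.46 to 30.3 CPM in these libraries and at a mean of 17.95 in Sham.

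Expression of 3 genes was lower in MI_soft than in MI, and no gene was higher, at an adjusted p under 0.05 in edgeR's quasi-likelihood test over 11376 genes. Differences and list medians are log2 values of MI_soft minus MI throughout, with the SE of the fit after ±, while levels are in CPM. The 3 genes are 0.0264% of those tested and encode a secreted vessel protein (Mmrn1), an RNA-binding protein of the cold response (Cirbp) and a signalling adaptor (Nck2). An unadjusted p under 0.05 was found for 904 genes with higher levels in MI_soft (7.95%) and 857 with lower levels (7.53%). A difference above 0 was found for 6090 of the 11376 genes. Counts of list members above or below 0 are to be read beside that number. In 290 genes (2.55%) every MI_soft library was above every MI library, and in 192 (1.69%) every one was below, which makes 482 (4.24%) without overlap. Statements on overlap here and in what follows are for CPM with TMM factors. In the deposited TPM, which carry no such factors, 74 of the 290 and 81 of the 192 also separated the groups. The median log2 ratio of TPM to CPM was -0.68 in MI 1, -1.48 to -1.23 in MI 2 to 4, -1.12 to -0.90 in MI_soft 1 to 3 and -1.56 in MI_soft 4. Of the genes described as not overlapping, Acsf2, Adm, Atp2a2, Atp6v1b2, Bag3, Ccl5, Cox6a2, Cox8b, Ctsd, Ctss, Cxcl12, Dusp1, Fos, Gpnmb, Hadhb, Hba-a1, Hspb8, Ivd, Lgmn, Ltbp1, Ncf1, Pdgfra, Pdpn, Pln, Rbmx, RT1-Ba, RT1-Da, RT1-Db1, Sdf2l1, Sdhc, Slc2a1, Syk, Tnni3k and Ucp3 overlapped in TPM. With MI 1 left out, the library that resembles MI_soft, 912 genes passed as higher (7.91% of 11528) and 596 as lower (5.17%), and all of the 3 were among them. Of the genes that passed in that fit and were tested in both, MI 1 itself lay within the range of the MI_soft libraries for 615 of 906 higher and 398 of 595 lower genes. The 3 calls rest on a small margin, because each adjusted p was 0.0316 and the count became 0 without any 1 of MI 2, MI 4, MI_soft 1, MI_soft 4, MI_stiff 1 or Sham 1 to 4. Without MI 3 none of the 3 passed (edgeR adjusted p = 0.0589 for each) and 1 other gene did, the immediate early factor Nr4a1, which was lower. The count was 293 (135 higher and 158 lower) with DESeq2.

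**Figure D1:**
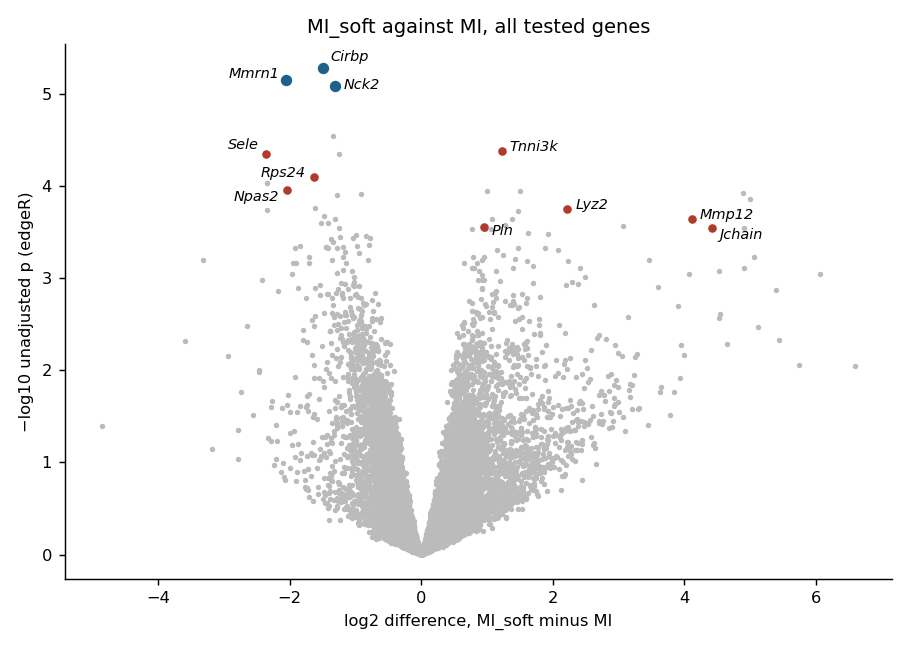
Each point is 1 of 11376 tested genes, with the log2 difference MI_soft minus MI on the x axis and the -log10 of the unadjusted edgeR p on the y axis. The 3 genes past the adjusted threshold (blue) are all on the lower side, with differences of -2.06 ± 0.33 (Mmrn1), -1.497 ± 0.23 (Cirbp) and -1.31 ± 0.21 (Nck2), and the red points are other genes described in the text, none of which passed.

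The promoters of the 3 genes are printed because these genes passed together and in the same direction. They come from RefSeq (GRCr8, another build than that of the counts), each covers 250 bases before to 50 bases after the annotated start, and 3 of 3 genes were found. Each is written 5′ to 3′ along its gene. Capitals mark matches to any of 4 motifs searched on both strands, which are TCCCCGCC (a mild cold-response element described for Cirbp), GGGCGG (GC box, which can overlap the former), CACGTG (E-box bound by clock factors) and GATAA (GATA site).
Mmrn1, chr4:91233166-91233465, plus strand: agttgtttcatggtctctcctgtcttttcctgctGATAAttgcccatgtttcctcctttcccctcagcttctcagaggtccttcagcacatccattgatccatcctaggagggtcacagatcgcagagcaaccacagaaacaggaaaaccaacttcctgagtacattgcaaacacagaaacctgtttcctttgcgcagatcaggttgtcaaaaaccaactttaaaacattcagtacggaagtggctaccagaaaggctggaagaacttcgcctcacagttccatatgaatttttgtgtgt
Cirbp, chr7:10189426-10189725, minus strand: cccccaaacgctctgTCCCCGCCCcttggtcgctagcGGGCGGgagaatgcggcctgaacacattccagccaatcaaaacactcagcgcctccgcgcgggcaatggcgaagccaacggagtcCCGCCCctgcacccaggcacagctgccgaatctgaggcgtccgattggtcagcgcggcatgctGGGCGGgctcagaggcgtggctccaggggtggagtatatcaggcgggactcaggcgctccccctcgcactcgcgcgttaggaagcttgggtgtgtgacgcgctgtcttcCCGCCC
Nck2, chr9:53206729-53207028, plus strand: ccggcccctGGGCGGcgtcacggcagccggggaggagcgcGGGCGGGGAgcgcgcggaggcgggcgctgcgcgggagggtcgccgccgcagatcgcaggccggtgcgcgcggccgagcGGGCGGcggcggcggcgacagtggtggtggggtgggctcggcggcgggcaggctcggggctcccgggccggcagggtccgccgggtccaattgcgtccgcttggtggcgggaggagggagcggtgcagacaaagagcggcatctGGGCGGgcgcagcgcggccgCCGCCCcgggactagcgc
The cold-response letters occur once in the Cirbp window, from base 16, and once on the opposite strand of the Nck2 window, from base 42. In both windows these letters overlap a GC box. They are found in 4.79% of the 33469 RefSeq promoter windows of this length. Cirbp and Nck2 each hold 5 GC boxes, a motif in 33.1% of windows, and Mmrn1 holds none and has 1 GATAA, a motif in 26.5%. No window of the 3 holds CACGTG, which is in 6.42% of all. The GC content is 45% for Mmrn1, 67% for Cirbp and 81.7% for Nck2. A match is a string of letters and not a measured binding site.

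Mmrn1 encodes multimerin 1, a large secreted protein of platelets and endothelium that also marks collecting lymphatic vessels. Its level was 49.2, 83.2, 71.6 and 98.3 CPM in MI 1 to 4 and 15.8, 24.9, 22.5 and 9.19 CPM in MI_soft 1 to 4. The highest MI_soft library stayed below the lowest MI library, which in CPM was MI 1. Mmrn1 fell by 2.06 ± 0.33 on the log2 scale (SE) in MI_soft (edgeR adjusted p = 0.0316), and by 2.24 ± 0.32 without MI 1 (edgeR adjusted p = 0.000815). The reference groups stood at 8.19 ± 2.08 CPM in Sham and 17.5 ± 6.40 in MI_stiff (SD, n = 4 each), so MI_soft lay close to MI_stiff.

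Cirbp encodes a cold-inducible RNA-binding protein that stabilises transcripts in mild hypothermia and other stress. Its level was 30.1, 54.8, 54.4 and 51.9 CPM in MI 1 to 4 and 16.1, 20.4, 17.5 and 13.7 CPM in MI_soft 1 to 4. In CPM, MI 2, 3 and 4 were close together, MI 1 lay far under them, and all MI_soft libraries were below MI 1. Cirbp fell by 1.497 ± 0.23 (SE, edgeR adjusted p = 0.0316), and by 1.68 ± 0.21 without MI 1 (edgeR adjusted p = 0.000268). Sham had 26.01 ± 2.27 CPM and MI_stiff 33.5 ± 8.82 (SD, n = 4), so MI_soft was the lowest of the 4 group means.

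Nck2 encodes an adaptor that links tyrosine kinase receptors to actin through its SH3 and SH2 domains. Its level was 21.0, 34.4, 33.3 and 24.4 CPM in MI 1 to 4 and 11.7, 10.3, 14.7 and 8.86 CPM in MI_soft 1 to 4. The groups did not overlap here either, with MI 1 again the lowest MI library in CPM. Nck2 fell by 1.31 ± 0.21 (SE, edgeR adjusted p = 0.0316), and by 1.45 ± 0.21 without MI 1 (edgeR adjusted p = 0.000869). In Sham it was at 22.1 ± 1.16 CPM and in MI_stiff at 20.9 ± 0.977 (SD, n = 4), between both groups compared. Per transcript length, in the deposited TPM, Cirbp had the highest level of the 3 in MI (31.9 ± 3.39 TPM), followed by Mmrn1 (17.0 ± 1.17) and Nck2 (9.68 ± 1.91), and in MI_soft they had 12.4 ± 3.58, 4.60 ± 2.16 and 4.27 ± 1.66 TPM (SD, n = 4). The groups did not overlap in TPM either, but the place of MI 1 was another. Cirbp was at 29.4, 33.2, 36.2 and 29.0 TPM in MI 1 to 4, Mmrn1 was at 16.1 TPM in both MI 1 and MI 3, and the lowest MI library for Nck2 was MI 4 (6.86 TPM, with 10.2 in MI 1). With the number of detected genes as a covariate the 3 differences were -1.86 (Mmrn1), -1.10 (Cirbp) and -1.10 (Nck2), each at edgeR adjusted p = 0.437. Without the 4 libraries of lowest detection, which leaves MI 1 alone in its group, the differences were -1.23, -0.75 and -0.78, given as values of 1 MI library against 3 with no test read from them. The number of detected genes also differed between these libraries, and its part in the results was not tested. In bulk tissue, fewer cells that express a gene and less of its RNA per cell cannot be told apart.

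**Figure D2:**
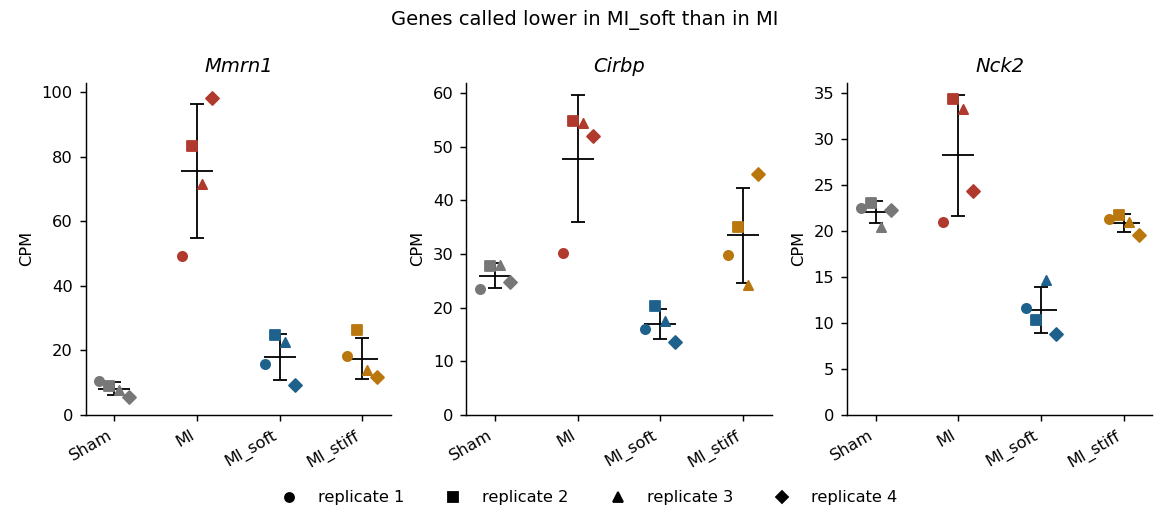
CPM of Mmrn1, Cirbp and Nck2 (linear axes from 0) in each library of the 4 groups, with the mean and SD of a group as black lines (n = 4). All 4 MI_soft points lie below all 4 MI points in each panel, and MI 1 (red circle) is the MI library nearest to MI_soft on this scale.

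Of 7 tested cold-inducible and related RNA-binding genes, Cirbp itself included, 4 had an unadjusted p under 0.05 on the lower side and 1 passed (Cirbp). The list's median log2 difference, also with Cirbp, was -0.75 against 0.049 over all tested genes. Rbm3, the other classic cold-shock RNA-binding protein, was at 63.0, 113, 79.4 and 109 CPM in MI 1 to 4 and 55.1, 74.4, 49.6 and 34.6 CPM in MI_soft 1 to 4. MI_soft 2 overlapped MI 1, and the difference was -0.77 ± 0.27 (SE, edgeR adjusted p = 0.213). Rbmx, a splicing factor of the same protein family, was lower in every MI_soft library (9.28 to 13.4) than in every MI library (15.2 to 23.6), with a difference of -0.75 ± 0.22 (SE, edgeR adjusted p = 0.15). Srsf2 and Srsf5, splicing regulators, had log2 differences of -0.09 and 0.14. Without MI 1, 4 of the 7 passed as lower, and without the low-detection libraries the list's median was -0.20.

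Of the genes that mark lymphatic endothelium, 12 of 14 tested had a difference below 0, 6 had an unadjusted p under 0.05 on the lower side and 2 did not overlap (Mmrn1 and Pdpn), with a median of -0.45. Ccl21, the lymphatic chemokine that draws dendritic cells and T cells, was at 515, 624, 184 and 224 CPM in MI 1 to 4 and 91.4, 121, 106 and 257 CPM in MI_soft 1 to 4. MI 1 and MI 2 were far above the rest, and MI_soft 4 was higher than MI 3 and MI 4. Its difference was -1.43 ± 0.38 (SE, edgeR adjusted p = 0.127). Pdpn, podoplanin of lymphatic endothelium and some fibroblasts, had 19.1 to 53.7 CPM in MI and 11.2 to 18.9 in MI_soft (-1.17 ± 0.30, edgeR adjusted p = 0.12). Lyve1, a hyaluronan receptor of lymphatics and of some tissue macrophages, overlapped fully, at 77.6 to 134 against 67.4 to 102 CPM (difference -0.19 ± 0.22). Prox1, the transcription factor that defines the lineage, was at 0 in MI 2, 3 and 4 and at 0.984 CPM in MI 1. It was at 0.334 to 1.72 CPM in MI_soft and at 6.57 CPM in Sham. Unlike Prox1, the genes Mmrn1, Ccl21, Pdpn and Lyve1 had lower means in Sham (8.19, 21.6, 5.29 and 12.7 CPM) than in MI and MI_soft. The summed level of the list was 740 to 1285 CPM in MI and 491 to 805 in MI_soft. Without MI 1, 5 members passed as lower and 1 as higher. Of 5 tested platelet genes and partners of multimerin, Vwf (von Willebrand factor) had a log2 difference of -0.76 and Pf4 and Itga2b, made by platelets and their precursors, had log2 differences of 0.23 and 0.63.

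Nck1, the paralogue of Nck2, was at 36.1, 69.8, 71.4 and 91.0 CPM in MI 1 to 4 and 45.6, 49.3, 36.1 and 38.0 CPM in MI_soft 1 to 4. MI 1 lay at the lower edge of the MI_soft range and MI 2, 3 and 4 above it, with a difference of -0.67 ± 0.23 (SE, edgeR adjusted p = 0.201). Across 13 adaptors and partners of the Nck proteins, Nck2 included, 2 were lower and 2 higher at an unadjusted p under 0.05, and the median was 0.012. Lims2 (PINCH2), an adaptor of the integrin-linked kinase complex, did not overlap on the higher side, at 102 to 125 against 126 to 324 CPM (0.79 ± 0.24, edgeR adjusted p = 0.174). Wasl, Nckap1 and Abi1, which drive actin branching, had log2 differences of 0.01, -0.13 and 0.52. Of 18 tested genes of cell-matrix adhesion and mechanosensing, which sense how stiff the matrix is, 4 were lower at an unadjusted p under 0.05 (Nck2, Nck1, Vcl and Ptk2) and none higher, with a median of -0.002. Among 15 targets of YAP and TAZ, coactivators that answer to mechanical load, the median was 0.12 and Ccn1 alone had an unadjusted p under 0.05, at 55.5 to 113 CPM in MI and 34.0 to 64.8 in MI_soft (-0.84 ± 0.25, edgeR adjusted p = 0.172).

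Macrophage and monocyte genes had higher values in MI_soft throughout the list. All 20 tested members had a difference above 0, 16 had an unadjusted p under 0.05, none passed by edgeR over all genes, and 1 (Lyz2) did not overlap. The median was 1.39. Their summed level was 2030 CPM in MI 1, 664 to 887 in MI 2 to 4, and 2065 to 6464 in MI_soft, with the highest value in MI_soft 4. Without MI 1, 15 of 20 passed as higher, and without the low-detection libraries the median was 0.073.

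Lyz2, lysozyme of myeloid cells, was at 604, 342, 301 and 253 CPM in MI 1 to 4 and 971, 1671, 1106 and 3266 CPM in MI_soft 1 to 4. MI 1 was the highest MI library and still below the lowest MI_soft library, and MI_soft 4 was far above the others. The difference was 2.22 ± 0.47 (SE, edgeR adjusted p = 0.0914), with 59.6 CPM in Sham and 1247 in MI_stiff. Cd68, a lysosomal glycoprotein of macrophages, was at 49.8, 19.3, 21.7 and 11.02 CPM in MI 1 to 4 and 41.2, 84.1, 33.2 and 137 CPM in MI_soft 1 to 4. Here MI 1 exceeded MI_soft 1 and 3, and the difference was 1.53 ± 0.50 (SE, edgeR adjusted p = 0.184). C1qb, a chain of complement C1q made by resident macrophages, was at 40.9 to 188 CPM in MI and 142 to 747 in MI_soft. Csf1r, the receptor for their main growth factor, was at 53.0 to 231 and 112 to 420.2 CPM. Syk, a kinase that carries signals from their Fc receptors, was higher without overlap, at 9.48 to 28.3 CPM in MI and 33.6 to 53.6 in MI_soft (1.47 ± 0.31, edgeR adjusted p = 0.0914).

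Genes of lipid-laden and phagocytic macrophages divided in direction, with 12 of 19 above 0, 2 higher and 3 lower at an unadjusted p under 0.05, and a median of 0.13. Gpnmb, a glycoprotein of macrophages that have taken up debris, was at 198, 61.5, 87.5 and 65.5 CPM in MI 1 to 4 and 258, 514, 234 and 342 CPM in MI_soft 1 to 4. The groups did not overlap (1.71 ± 0.44, edgeR adjusted p = 0.12), and MI_stiff was higher again at 992 ± 504 CPM (SD, n = 4). Ctsd, a lysosomal protease, had 208 to 422 CPM in MI and 469 to 1042 in MI_soft (1.14 ± 0.28, edgeR adjusted p = 0.105), while Cd9, Fabp4 and Ctsl had log2 differences of -0.99, -0.97 and -0.63. Of 22 genes of the lysosome and phagosome 18 were above 0, with a median of 0.50. The 3 that did not overlap were all higher (Atp6v1b2 of the proton pump, Lgmn, a protease, and Ncf1 of the phagocyte oxidase). The Sham means of Ncf1 (136 CPM) and Atp6v1b2 (121 CPM) were above those of MI and MI_soft, and that of Lgmn (140 CPM) was below both. For Ctsd the Sham mean (433.5 CPM) lay between MI and MI_soft.

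Of 11 tested genes of multinucleated giant cells and osteoclast-type macrophages, which form on foreign material, 10 were above 0 and 4 did not overlap, all higher. Mmp12, macrophage elastase, was at 19.8, 1.59, 4.03 and 1.002 CPM in MI 1 to 4 and 71.1, 265, 67.1 and 65.7 CPM in MI_soft 1 to 4. MI 1 was the highest MI library, and the lowest MI_soft library had over 3 times its level. The difference was 4.11 ± 0.85 (SE, edgeR adjusted p = 0.0914), with 0 CPM in every Sham library and a mean of 560.5 in MI_stiff. The fusion genes were scarce. Dcstamp, a receptor needed for macrophage fusion, was at 0 in MI 2, 3 and 4, 0.246 CPM in MI 1 and 0.595 to 1.98 CPM in MI_soft, against 6.40 in MI_stiff. Atp6v0d2, a proton pump subunit of osteoclasts, was likewise at 0 in MI 2, 3 and 4, at 1.97 CPM in MI 1 and at 3.21 to 9.66 in MI_soft. Such low genes entered the test through their counts in MI_soft and MI_stiff, so that the list's counts describe the libraries and give no separate support.

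MHC class II genes, which present antigen to helper T cells, were above 0 in 9 of 9 tested, with a median of 1.55, an unadjusted p under 0.05 in 6 and no overlap in 4. RT1-Ba, an alpha chain, was at 69.7, 49.6, 34.4 and 32.4 CPM in MI 1 to 4 and 76.8, 119.8, 74.2 and 343 CPM in MI_soft 1 to 4. MI 1 was only just below MI_soft 1 and 3, and MI_soft 4 exceeded all others. The difference was 1.72 ± 0.52 (SE, edgeR adjusted p = 0.173). RT1-Da, RT1-Db1 and Ctss, the protease that frees the peptide groove, did not overlap either, with log2 differences of 1.40 ± 0.45, 1.63 ± 0.53 and 1.07 ± 0.32. Cd74, the invariant chain, had 738, 404, 192 and 299 CPM in MI 1 to 4 and 944, 1122, 717 and 2309 in MI_soft 1 to 4, so that MI 1 overlapped. The summed level of the list was 1267 CPM in MI 1, 455 to 812 in MI 2 to 4 and 1225 to 4153 in MI_soft. RT1 genes are close copies of each other, and how reads shared among them were assigned is not known.

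B and plasma cell genes were above 0 in 11 of 12 tested (median 2.34), with an unadjusted p under 0.05 in 7 and no overlap in 5. Jchain, the joining chain of secreted IgA and IgM, was at 18.7, 0, 1.03 and 3.01 CPM in MI 1 to 4 and 259, 31.4, 157 and 53.3 CPM in MI_soft 1 to 4. MI_soft 1 and 3 were the highest and MI 2 had no count, and the difference was 4.42 ± 0.98 (SE, edgeR adjusted p = 0.0914). MI_stiff, with 3.02 ± 1.65 CPM (SD, n = 4), was near Sham (1.65 ± 1.02 CPM). Mzb1, an endoplasmic reticulum protein of plasma cells, was at 0 in MI 2, 3 and 4, at 2.77 CPM in MI 1 and at 31.5, 5.47, 27.5 and 27.4 CPM in MI_soft 1 to 4. Pou2af1, a coactivator of B cells, had the same pattern at lower levels, with 2.21 to 20.4 CPM in MI_soft, 1.48 in MI 1 and 0 in MI 2, 3 and 4. Mzb1 and Pou2af1 entered the test through their counts in MI_soft, so that the list's counts describe the libraries and give no separate support. Blnk, an adaptor of the B cell receptor also made by macrophages, did not overlap. It was at 3.75 to 6.95 CPM in MI and 9.05 to 16.7 in MI_soft (1.38 ± 0.30, edgeR adjusted p = 0.0914).

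T and NK cell genes were above 0 in 15 of 15 tested (median 1.55), and 4 had an unadjusted p under 0.05. Ccl5, a chemokine of activated T cells and macrophages, was at 1.03 to 10.3 CPM in MI, with MI 1 the highest, and at 10.9 to 36.1 in MI_soft (2.26 ± 0.75, edgeR adjusted p = 0.184). Cd3e, a chain of the T cell receptor complex, was at 3.93, 0, 1.97 and 0.911 CPM in MI 1 to 4 and 2.32, 1.45, 4.36 and 6.35 in MI_soft 1 to 4. The groups overlapped and the level was close to the limit of detection. Summed levels of the list were 151 CPM in MI 1, 17.8 to 34.1 in MI 2 to 4 and 104 to 256 in MI_soft. In Sham the sums were 41.3 to 57.0 CPM, above MI 2 to 4, and the mean of Ccl5 was 9.45 CPM. Without MI 1, 6 of 15 passed as higher, and without the low-detection libraries the median was -0.31.

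Interferon response genes were carried by 1 library. Of 26 tested, 20 were above 0, 3 were higher and 1 lower at an unadjusted p under 0.05, and none separated the groups. Irf7, the factor that amplifies type I interferon, was at 90.6, 169, 112 and 90.6 CPM in MI 1 to 4 and 128, 57.0, 36.7 and 1471 CPM in MI_soft 1 to 4. MI_soft 4 had more than 8 times the level of any other library, and MI_soft 2 and 3 were below every MI library. Usp18, which limits interferon signalling, was at 12.3, 6.46, 4.23 and 74.9 CPM in MI_soft 1 to 4 and 4.50 to 15.5 in MI. Without MI_soft 4 the differences were -0.65 for Irf7 and -0.046 for Usp18, where they had been 1.87 ± 0.77 and 1.64 ± 0.67.

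Chemokines and cytokines had no common direction, with 14 of 23 above 0 and a median of 0.10. Cxcl13, which attracts B cells, was at 3.94 to 38.4 CPM in MI and 34.7 to 186 in MI_soft (2.41 ± 0.60, edgeR adjusted p = 0.103). Cxcl12, made by stromal cells and pericytes, was lower without overlap in CPM, at 149, 149, 236 and 155 CPM in MI 1 to 4 and 63.7, 136, 70.8 and 65.7 CPM in MI_soft 1 to 4. In TPM the groups overlapped, at 39.9 to 274.3 in MI, with MI 1 the highest, and 15.6 to 88.8 in MI_soft. MI 3 and MI_soft 2 each lay above the rest of their group, and the difference was -1.03 ± 0.23 (SE, edgeR adjusted p = 0.0949). Complement genes had a median of 0.28, with Masp1, a protease of the lectin pathway, at a log2 difference of 1.92 ± 0.43. The 9 tested genes of neutrophils and mast cells had a median of 1.23 and none with an unadjusted p under 0.05, and Elane, Mpo and Cxcr2, which define neutrophils, were at 0.684 CPM or less in all 8 libraries.

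**Figure D3:**
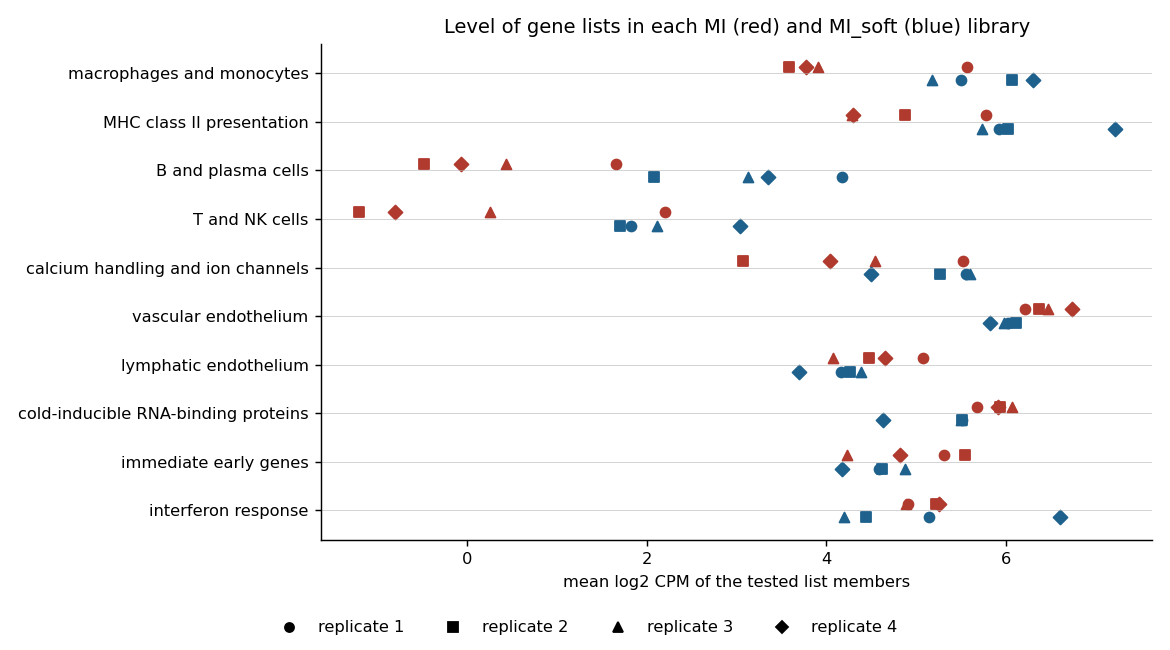
Mean log2 CPM of the tested members of 10 gene lists (x axis) in each MI (red) and MI_soft (blue) library, with the symbol giving the replicate number. For macrophages, MHC class II and T and NK cells MI 1 (red circle) lies with the MI_soft libraries, while for vascular endothelium and cold-inducible proteins it lies at the lower end of MI.

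Medians of other lists also moved with single libraries or with detection. Without MI_soft 4 the median was 0.94 for MHC class II, 0.998 for T and NK cells, -0.40 for interferon response (0.36 over all libraries), -0.18 for chemokines and cytokines and 0.011 for complement. Without the low-detection libraries it was 0.28 for MHC class II, -0.44 for chemokines and cytokines, -0.20 for complement, -0.25 for interferon response, -0.039 for neutrophils and mast cells and 0.08 for lysosome and phagosome. With the number of detected genes as a covariate it was -0.054 for lipid-laden and phagocytic macrophages, -0.33 for targets of YAP and TAZ, -0.36 for the Nck adaptors and partners, -0.39 for angiogenic factors, -0.19 for clock genes and -0.30 for TGF-beta signalling.

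Heart muscle genes were mostly at higher levels in MI_soft, with the largest list median for calcium handling and ion channels. Of 20 tested genes of calcium handling and ion channels 13 were above 0, 9 were higher and 1 lower at an unadjusted p under 0.05, none passed, and 2 did not overlap (Pln and Atp2a2), with a median of 0.83. The median was 0.28 with the number of detected genes as a covariate and 0.037 without the low-detection libraries. Pln, phospholamban, the brake on the calcium pump, was at 678, 541, 648 and 474 CPM in MI 1 to 4 and 1012, 872, 1202 and 1454 CPM in MI_soft 1 to 4. No library of one group reached the other, and both stayed under the Sham mean of 2447. The difference was 0.96 ± 0.21 (SE, edgeR adjusted p = 0.0914). Atp2a2, the pump itself (SERCA2), was at 2771, 1429, 3745 and 2092 CPM in MI 1 to 4 and 5613, 4102, 4653 and 5062 CPM in MI_soft 1 to 4. MI 3 was the highest MI library and below MI_soft 2, the lowest of its group, and Sham had 14960 CPM. The difference was 0.95 ± 0.24 (SE, edgeR adjusted p = 0.115).

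Jph2, which holds the transverse tubule to the calcium store, was at 148, 25.6, 17.6 and 20.3 CPM in MI 1 to 4 and 195, 115, 166 and 161 CPM in MI_soft 1 to 4. MI 1 lay within the MI_soft range and MI 2, 3 and 4 far below, as was also the case for Srl, sarcalumenin (74.9, 5.11, 13.3 and 7.47 against 39.9 to 100.3 CPM). The differences were 1.58 ± 0.51 and 1.58 ± 0.59 (SE, edgeR adjusted p = 0.18 and 0.229). Tnni3k, a kinase specific to heart muscle, was higher without overlap, at 55.2, 31.6, 57.2 and 36.5 CPM in MI 1 to 4 and 132, 81.9, 114 and 92.7 CPM in MI_soft 1 to 4 (1.22 ± 0.23, edgeR adjusted p = 0.0732). Hcn2, a pacemaker channel, had 98.0, 10.47, 30.1 and 14.9 CPM in MI and 131 to 226 in MI_soft, without overlap (2.07 ± 0.49, edgeR adjusted p = 0.097). Without MI 1, 10 of the 20 calcium handling genes passed as higher and none as lower.

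Contractile proteins had a median of 0.38, with 12 of 15 above 0, and 5 higher and 1 lower at an unadjusted p under 0.05. Myl2, at the low level given above, went the other way, at 12.3 to 30.3 CPM in MI and 6.46 to 13.6 in MI_soft (-1.08 ± 0.42, edgeR adjusted p = 0.244). Myh6, the fast adult myosin, was at 3703, 859.6, 2183 and 1999 CPM in MI 1 to 4 and 4484, 3414, 1423 and 4034 CPM in MI_soft 1 to 4. The groups overlapped widely, with MI_soft 3 below MI 1, 3 and 4, and the difference was 0.61 ± 0.39 (SE, edgeR adjusted p = 0.459), against 20670 CPM in Sham. Myh7, the slow myosin, and Tnnt2, cardiac troponin T, had log2 differences of 0.012 ± 0.31 and -0.092 ± 0.27. Myl3, the essential light chain, was at 1646 to 2324 CPM in MI and 2182 to 5753 in MI_soft (0.82 ± 0.27, edgeR adjusted p = 0.187). Wall stress genes had a median of 0.026. Nppa and Nppb, natriuretic peptides released on stretch, were at 3654, 5089, 3770 and 6445 and 6518, 2674, 6013 and 3667 CPM (Nppa) and at 391, 511, 475 and 625 and 656, 415, 597 and 418 CPM (Nppb) in MI 1 to 4 and MI_soft 1 to 4. Their libraries interleaved and the differences were -0.0065 ± 0.48 and 0.059 ± 0.25 (SE).

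Genes of energy metabolism had small positive medians, 0.24 for fatty acid oxidation, 0.28 for respiratory chain and citric acid cycle and 0.54 for glycolysis and glucose uptake. Without MI_soft 4 they were 0.12, 0.18 and 0.23. Of 27 genes of fatty acid oxidation 20 were above 0, 9 higher and 1 lower at an unadjusted p under 0.05. Hadhb, the beta subunit of the trifunctional protein, was at 518, 241, 514 and 326 CPM in MI 1 to 4 and 656, 580, 780.4 and 999 CPM in MI_soft 1 to 4. The groups did not overlap (0.92 ± 0.25, edgeR adjusted p = 0.129). Ucp3, an uncoupling protein regulated with fat supply, went the other way without overlap, at 5.03 to 8.85 CPM in MI and 2.34 to 3.70 in MI_soft (-1.25 ± 0.28, edgeR adjusted p = 0.0914), against 31.0 in Sham. Ivd and Acsf2, enzymes of leucine breakdown and of fatty acid activation, were higher without overlap. Ivd was at 107 to 185 CPM in MI and 230.5 to 375 in MI_soft (1.01 ± 0.20, edgeR adjusted p = 0.0894). In the list of respiratory chain and tricarboxylic acid cycle genes 10 of 32 were higher and 1 lower at an unadjusted p under 0.05, and Sdhc, Cox6a2 and Cox8b did not overlap. Sdhc, an anchor of succinate dehydrogenase, was at 167 to 275 CPM in MI and 306 to 547 in MI_soft (0.86 ± 0.22, edgeR adjusted p = 0.115). For glycolysis and glucose uptake 11 of 14 were above 0, and Slc2a4, the insulin-regulated glucose transporter, had a log2 difference of 0.92 ± 0.24 (SE, edgeR adjusted p = 0.123).

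**Figure D4:**
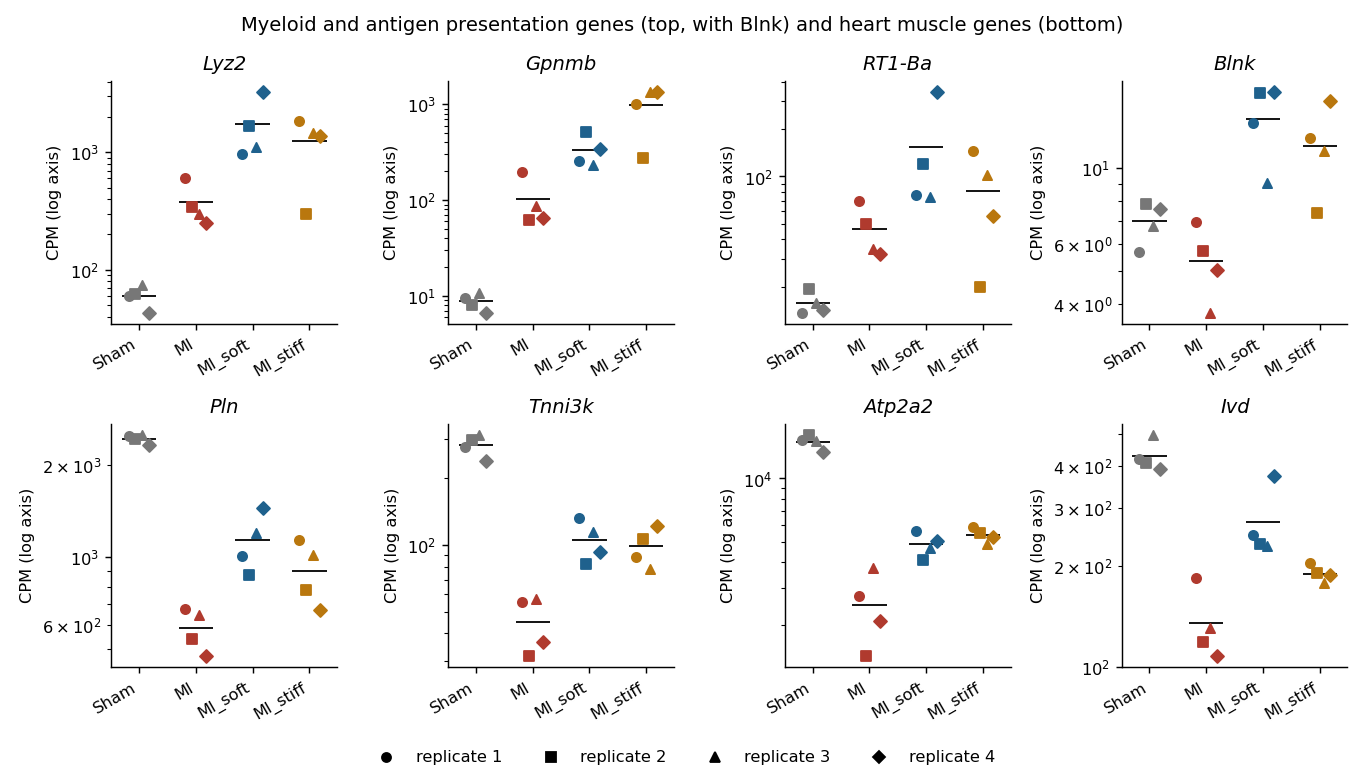
CPM (log axes) in each library of the 4 groups for 4 immune genes (top row) and 4 heart muscle or metabolic genes (bottom row), with a black line at the group mean. In all 8 panels every MI_soft point is above every MI point, MI 1 (red circle) is the MI library nearest to MI_soft in 6 of them, and the Sham mean is the lowest of the 4 for Lyz2, Gpnmb and RT1-Ba and the highest in the bottom row.

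Blood vessel genes were lower or near 0. Of 13 tested markers of vascular endothelium 11 were below 0 and 5 had an unadjusted p under 0.05, with a median of -0.34, which was -0.61 without MI_soft 4. Tek, the angiopoietin receptor TIE2, was at 50.3, 125, 214 and 153 CPM in MI 1 to 4 and 68.1, 66.8, 74.5 and 35.6 CPM in MI_soft 1 to 4. MI 1 lay within the MI_soft range and MI_soft 4 was the lowest (-1.14 ± 0.33, edgeR adjusted p = 0.149). Emcn, endomucin of capillaries and veins, and Sox17, an arterial transcription factor, had log2 differences of -1.01 ± 0.27 and -1.10 ± 0.42. Flt1 and Cdh5, a VEGF receptor and the junctional cadherin, had log2 differences of 0.14 and -0.01. Sele, E-selectin, which inflamed endothelium uses to capture leukocytes, was lower without overlap, at 11.4, 22.0, 12.8 and 19.9 CPM in MI 1 to 4 and 2.46, 4.03, 5.02 and 1.25 CPM in MI_soft 1 to 4 (-2.36 ± 0.44, edgeR adjusted p = 0.0732). Lmo2, a transcription cofactor of endothelium and blood cells, was at 31.2 to 64.6 CPM in MI and 12.4 to 23.3 in MI_soft (-1.34 ± 0.24, edgeR adjusted p = 0.0732). Pald1, paladin of endothelium, had 33.9 to 67.2 and 13.1 to 25.2 CPM (-1.24 ± 0.23, edgeR adjusted p = 0.0732). Of the angiogenic and hypoxia genes Adm, Vegfc, Hif1a, Vegfa and Aplnr were lower at an unadjusted p under 0.05, Slc2a1 and Vegfb higher, and the median was 0.008. Among smooth muscle cell and pericyte genes (median -0.34), Kcnj8, a pericyte potassium channel subunit, did not overlap, at 52.4 to 90.6 against 35.2 to 49.2 CPM (-0.79 ± 0.18, edgeR adjusted p = 0.0957).

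Collagens and matricellular proteins as a list had no common direction, with 12 of 26 above 0 and a median of -0.033. Col1a1, the main fibrillar collagen, was at 4662, 2626, 951 and 1952 CPM in MI 1 to 4 and 2357, 3243, 2393 and 2735 CPM in MI_soft 1 to 4. MI 1 was the highest and MI 3 the lowest of the 8, and MI_soft lay between (0.074 ± 0.34, SE). Col3a1 and Postn, the matricellular periostin, had log2 differences of -0.27 ± 0.23 and -0.53 ± 0.34. Thbs4, a thrombospondin of stretched tissue, was lower without overlap, at 271 to 472 CPM in MI and 92.3 to 232 in MI_soft (-1.10 ± 0.37, edgeR adjusted p = 0.192), with 2.57 in Sham. Meox1, a transcription factor that switches on in activated fibroblasts, was at 6.51, 20.4, 14.3 and 25.9 CPM in MI 1 to 4 and 5.08, 3.19, 6.67 and 2.17 CPM in MI_soft 1 to 4. MI 1 lay just inside the MI_soft range, and the difference was -1.97 ± 0.49 (SE, edgeR adjusted p = 0.108).

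Resting fibroblast genes were below 0 in 13 of 16 tested (median -0.40), with 4 lower and 1 higher at an unadjusted p under 0.05 and 3 without overlap, all lower (Gsn, Lum and Pdgfra). Gsn, the actin-severing protein gelsolin, was at 2559, 3886, 2667 and 2947 CPM in MI 1 to 4 and 1406, 1554, 1797 and 1643 CPM in MI_soft 1 to 4. MI_soft was close to Sham (1573 CPM) and MI_stiff (1688 CPM), and the difference from MI was -0.91 ± 0.19 (SE, edgeR adjusted p = 0.0894). Lum, the proteoglycan lumican, had 937 to 1327 CPM in MI and 330.2 to 907 in MI_soft (-0.97 ± 0.31, edgeR adjusted p = 0.178). Of 19 TGF-beta signalling genes the median was -0.034. Ltbp1, which stores the latent factor in matrix, was lower without overlap, at 126 to 166 CPM in MI and 35.4 to 114 in MI_soft (-0.85 ± 0.30, edgeR adjusted p = 0.204). In matrix crosslinking and proteolysis (median -0.12) Mmp12 and Mmp3 were higher and the aggrecanase Adamts4 lower without overlap, the latter at 1.78 to 3.83 against 0.167 to 1.29 CPM. Epicardial genes had a median of -0.76 in 7 tested, but one of 0.59 with the number of detected genes as a covariate and 1.13 without the low-detection libraries, so that no direction is given. Wt1, a transcription factor of the epicardium, was at 8.42, 33.6, 47.5 and 60.0 CPM in MI 1 to 4 and 4.51 to 24.1 in MI_soft (-1.31 ± 0.48, edgeR adjusted p = 0.217).

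Immediate early genes, which switch on within minutes of a stimulus or of tissue handling, were lower at an unadjusted p under 0.05 in 5 of 15 tested and higher in 1 (Klf2), with a median of -0.32. Fos, a subunit of the AP-1 factor, was at 24.4, 19.5, 25.1 and 12.7 CPM in MI 1 to 4 and 5.75, 5.17, 9.58 and 4.60 CPM in MI_soft 1 to 4. Each MI_soft library was below each MI library (-1.70 ± 0.41, edgeR adjusted p = 0.0977), and MI_stiff was at 5.70 CPM. Egr1, an early growth response factor, was at 102, 127, 24.2 and 51.4 CPM in MI 1 to 4 and 19.1, 26.8, 35.0 and 13.0 in MI_soft 1 to 4, so that MI 3 overlapped (-1.70 ± 0.42, edgeR adjusted p = 0.0977). Dusp1, a phosphatase that ends kinase signalling, had 149 to 228 and 83.1 to 128 CPM (-0.75 ± 0.20, edgeR adjusted p = 0.131).

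Clock genes differed in both directions, with 4 of 15 tested higher and 3 lower at an unadjusted p under 0.05 and a median of 0.11. Npas2 and Arntl, which activate clock genes, were lower without overlap, and Per1 and Ciart, which repress them, were higher without overlap. Cry1, another repressor, had a log2 difference of -0.85, and Clock, the partner of Arntl, one of 1.33 with overlap. Npas2 was at 10.3, 10.7, 14.1 and 9.57 CPM in MI 1 to 4 and 2.46, 1.75, 5.22 and 1.34 CPM in MI_soft 1 to 4. MI_soft was under every library of the other groups (-2.04 ± 0.41, edgeR adjusted p = 0.0894), with 33.1 CPM in Sham and 19.2 in MI_stiff. Arntl (BMAL1) was at 9.76 to 13.5 CPM in MI and 2.26 to 7.15 in MI_soft, against 51.5 in Sham and 38.7 in MI_stiff (-1.11 ± 0.38, edgeR adjusted p = 0.192). Per1 was at 45.0, 71.2, 45.4 and 62.4 CPM in MI 1 to 4 and 87.2, 80.6, 102 and 139.8 CPM in MI_soft 1 to 4 (0.87 ± 0.30, edgeR adjusted p = 0.192), with 20.1 CPM in Sham. Nr1d1 and Dbp, output factors of the clock, overlapped between the groups, with log2 differences of 1.33 ± 0.44 and 1.53 ± 0.60. The hour at which hearts were taken is not given, and its part in these levels was not tested.

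**Figure D5:**
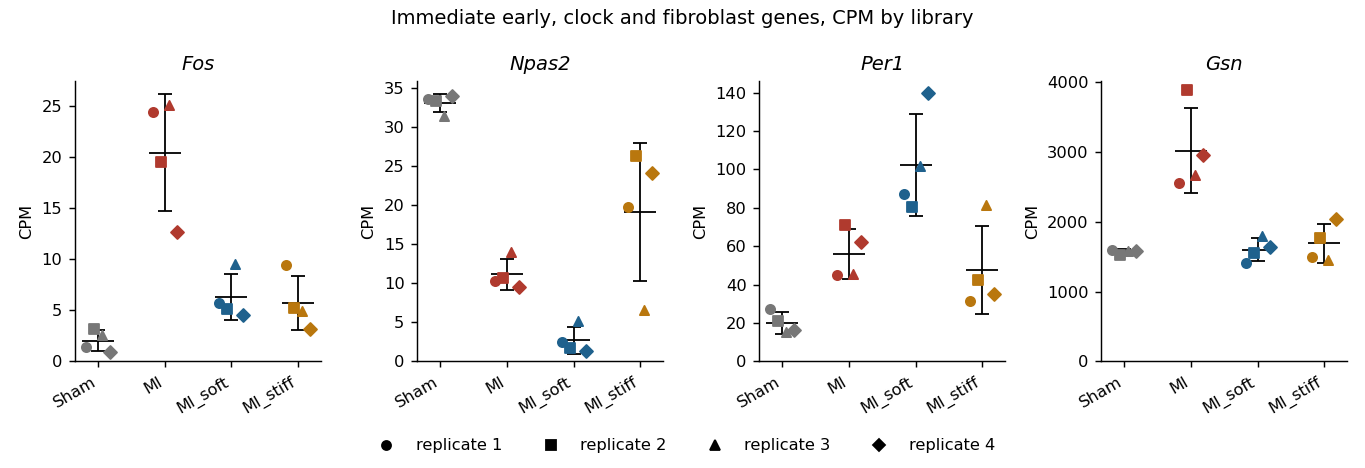
CPM (linear axes from 0) of Fos, Npas2, Per1 and Gsn in each library of the 4 groups, with the mean and SD of a group as black lines (n = 4). MI_soft lies below MI without overlap for Fos, Npas2 and Gsn and above it for Per1.

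Genes of protein synthesis, chosen for description after their values were seen, were slightly lower. Of 57 tested genes of cytosolic ribosomal proteins 36 were below 0, 14 were lower and 1 higher at an unadjusted p under 0.05, and the median was -0.20. Rps24, of the small subunit, was at 105, 282, 303 and 419.8 CPM in MI 1 to 4 and 77.4, 103, 88.9 and 87.4 CPM in MI_soft 1 to 4. MI 1 was far below the other MI libraries and near MI_soft (-1.64 ± 0.32, edgeR adjusted p = 0.0894). Tpt1, a growth-related protein with the same type of translational control, was at 1546 to 4564 CPM in MI and 1005 to 1512 in MI_soft (-1.29 ± 0.26, edgeR adjusted p = 0.0894). Ribosomal protein genes have many processed copies, so that their counts are uncertain. Over all genes the median difference was 0.32 in the lowest of 5 equal bins of mean level and -0.001 in the highest, and 0.067 in the shortest of 5 bins of effective length and -0.031 in the longest.

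Markers of other tissues were not evenly spread. The fast skeletal muscle genes Mylpf and Actn3 were at 332 and 108 CPM in MI 1 and at 56.7 and 13.8 CPM in MI_soft 2, and below 5 CPM in the other 6 libraries. Myl1, a myosin light chain of fast muscle and atrium, was at 347, 73.3, 30.1 and 42.5 CPM in MI 1 to 4 and 36.2, 78.9, 35.0 and 42.1 CPM in MI_soft 1 to 4, high in MI 1 alone. Hba-a1, alpha globin of red blood cells, was higher without overlap, at 124 to 404 CPM in MI and 430.3 to 1272 in MI_soft (1.39 ± 0.45, edgeR adjusted p = 0.182), and 779 in Sham. Schwann cell genes had a median of -0.41 and adipocyte genes of 0.95, with 0 and 1 members at an unadjusted p under 0.05. The cell cycle list had a median of 0.36, and 1 of its 19 tested genes, the mitotic kinase Plk1, had an unadjusted p under 0.05, at 0.750 to 3.01 against 3.37 to 7.45 CPM. Of 11 heat shock genes Bag3 and Hspb8, partners in clearing damaged muscle proteins, were higher without overlap. Bag3 was at 156 to 247 CPM in MI and 256 to 298 in MI_soft (0.53 ± 0.18, edgeR adjusted p = 0.187). Among 16 genes of the integrated and endoplasmic reticulum stress responses Sdf2l1, an endoplasmic reticulum protein, was the 1 with an unadjusted p under 0.05 (1.20 ± 0.31, edgeR adjusted p = 0.119).

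For the genes described here, which had the smallest p once MI 1 was left out, MI 1 itself mostly lay inside the MI_soft range in CPM. The exceptions were Hcn2, where it lay below, and Rps24, Tpt1 and Cirbp, where it lay above. Jph2, Srl, Lrrc4b, Kcnj11, Mgrn1, Fndc5, Ighe and Hcn2 had higher levels in MI_soft, and in each of them MI 1 was well above MI 2, 3 and 4. Kcnj11, the pore of the ATP-sensitive potassium channel, was at 15.7, 4.36, 2.91 and 3.10 CPM in MI 1 to 4 and 19.6, 13.8, 26.6 and 25.6 CPM in MI_soft 1 to 4. MI 1 lay inside the MI_soft range, and the difference was 1.69 ± 0.42 with MI 1 (edgeR adjusted p = 0.103) and 2.61 ± 0.28 without it (edgeR adjusted p = 0.000146). Mgrn1, a ubiquitin ligase, was at 93.4, 9.88, 17.0 and 28.4 CPM in MI 1 to 4 and 111, 104, 105 and 89.9 CPM in MI_soft 1 to 4. Its MI 1 value was above MI_soft 4, and Sham was at 258 ± 35.8 CPM (SD, n = 4). On the lower side were Id1, Adgrl4, Luc7l, Atp5if1 and Tspan8, beside Rps24, Tpt1 and Cirbp. Id1, a target of BMP signalling in endothelium, was at 82.2, 304, 178 and 221 CPM in MI 1 to 4 and 80.4, 89.5, 78.7 and 104 CPM in MI_soft 1 to 4. MI 1 was again inside the MI_soft range, with a difference of -1.16 ± 0.27 (edgeR adjusted p = 0.0977) that was -1.43 ± 0.20 without MI 1 (edgeR adjusted p = 0.000693). Adgrl4, an adhesion receptor of endothelium, was at 42.8, 136, 135 and 142 CPM in MI 1 to 4 and 45.1, 44.4, 44.5 and 36.6 CPM in MI_soft 1 to 4. MI 1 was close to MI_soft 1, 2 and 3 and far below MI 2, 3 and 4. Atp5if1, the inhibitor of the mitochondrial ATP synthase, was at 56.9 to 239 CPM in MI and 48.7 to 71.0 in MI_soft.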

How the data were processed

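Bulk RNA sequencing measured the infarct zone in 16 libraries, grouped by their labels. The authors deposited expected counts, estimates of the reads of each gene, for 17085 genes, and the authors also deposited TPM (scaled for length and depth) for the same genes. Build rn7, RSEM 1.3.1 and STAR 2.7.3a are named, per the submitters' processing notes. The sources used here give neither the annotation nor the strand setting, and overlapping or antisense genes cannot be separated. Values were rounded before testing, since 0.785% of the deposited counts were not whole.

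edgeR's expression filter kept 11376 genes, of which 483 had counts identical to another gene's and are uncertain (10 of them in the gene lists). TMM factors scaled the libraries. Groups were compared by the quasi-likelihood test of edgeR 4.0.16 (R 4.3.3), with 1 coefficient for each of the 4 groups, over all 16 libraries, with Benjamini-Hochberg adjustment over all tested genes and a threshold of 0.05. edgeR estimated a common biological coefficient of variation of 0.403. Differences are MI_soft minus MI on the log2 scale with the SE of the fit. Values per library are CPM, and log2 CPM used a prior count of 2. The scripts were tested on simulated counts.

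The comparison and the 41 gene lists (772 entries, 661 with a row) were chosen with earlier results of these data known, and they are described by counts and medians without a list test. Named were the called genes, the 8 genes in each direction with the smallest p and a mean of at least 5 CPM in either group, with and without MI 1, the list member with the smallest p, and a set of defining genes. List members whose libraries do not overlap were added after their values were seen, and a few genes that these rules name are not reported here. Alternatives were other scaling and filters, DESeq2 1.42.0, limma 3.58.1 (voom, also with library quality weights), only the 8 libraries compared, a replicate block, the number of detected genes as a covariate and each library left out. Leaving out the 4 low-detection libraries was chosen after seeing the data. Listed genes without a row were not analysed here.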

Additional observations from a re-analysis of the deposited data

Results flagged for a closer look

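In 26 of 258 groups of 4 values checked (126 named genes in MI and in MI_soft, and the library measures), 1 library lay far from the other 3. Chance gives this in about 1 of 20 groups, but many of these genes were named by a fit without MI 1 or by the separation of their libraries, and 7 have no count in MI 2, 3 and 4, so the number found cannot be set against that rate. Values are log2 CPM. MI 1 was the library apart in 13 of them. It was above MI 2, 3 and 4 for Ighe (7.705, against 1.82 to 2.58), Lrrc4b (6.544, against 3.66 to 3.80) and Hspb7 (10.49, against 9.36 to 9.54). In 7 scarce genes it was the single MI library with a count, at 1.085 for Atp6v0d2, -1.32 for Dcstamp, 0.9074 for Ddah1, 1.546 for Mzb1, 0.7047 for Pou2af1, 0.1866 for Prox1 and -0.9341 for Tm4sf19. It was below the others for Adgrl4 (5.426, against 7.08 to 7.15), Cirbp (4.92, against 5.70 to 5.78) and Luc7l (4.254, against 5.62 to 5.73).

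MI_soft 4 was apart in 7 measures. It was above MI_soft 1, 2 and 3 for Cox6a2 (10.82), Cox8b (8.875) and Ivd (8.551), and below them for Adgrl4 (5.20), Sox17 (1.807, against 4.56 to 4.76) and Tek (5.16). It also had the fewest genes with at least 5 counts (10865, against 11552 to 11692).

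The others were MI 3, which was above its group for Cxcl12 (7.88) and Tnni3 (11.3), MI_soft 2, which was above its group for Cxcl12 (7.094) and Mmp12 (8.05) and below it for Mzb1 (2.493), and MI_soft 3, which was below its group for Slc2a1 (4.487).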

How the results depend on the processing

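The number of genes passing in MI_soft against MI depended on the model. With edgeR on the 8 libraries alone, with the replicate number as a block, or with the number of detected genes as a covariate, 0 genes passed (0 lower). DESeq2 gave 293 (135 higher, 158 lower), limma-voom 7 (3 higher), and limma-voom with library quality weights 407 (176 higher, 231 lower). Other scaling factors, other filters and leaving out the mitochondrially encoded genes kept the count within 1.5 times. Leaving out 1 library gave 0 to 1508 in all, 0 to 912 higher and 0 to 596 lower, with the highest values without MI 1. Without the low-detection libraries, chosen after seeing the data, 11 passed (2 higher, 9 lower), none of the 3 among them. MI 1 is then the single MI library, assumed to vary like the other groups, so these calls compare 1 library, which is high in skeletal muscle genes, and Tnnt1 and Mybpc2 are among the 9. The shared replicate numbers were not taken as pairs: deviations of same-numbered libraries correlated at 0.088, -0.06, 0.121 and -0.0763. Under the replicate block Mmrn1, Cirbp and Nck2 had edgeR adjusted p-values of 0.0925, 0.0935 and 0.112. Mmrn1, Cirbp and Nck2 kept their direction in all 28 alternatives. Counting only genes with at least 5 counts, the groups differed by 602.8 genes (exact permutation p = 0.229), and with 1 library left out the difference in genes with a count was 780.2 to 1564, in a design that then cannot reach the threshold.

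Some of the log2 differences that changed sign were near 0 in the main fit, such as -0.0065 for Nppa. Others were large there, among them -1.42 for Adgrl4, 1.07 for Csf1r, 1.53 for Dbp and 1.17 for Lrrc4b. The values after the change of sign follow. Without the low-detection libraries they were 0.0535 for Adgrl4, -0.5394 for Cd3e, -0.815 for Col1a1, -0.6195 for Csf1r, -0.0602 for Dbp, 0.3559 for Fabp4, -0.4852 for Fcnb, -0.2398 for Hspb7, 0.0032 for Id1, -0.3008 for Irf7, -0.5449 for Lrrc4b, 0.1544 for Luc7l, -0.261 for Myh6, -0.1567 for Myh7, 0.2653 for Nck1, 0.4658 for Nppa, -0.1813 for Nr1d1, 0.4651 for Tek, 0.1619 for Tnnt2, 0.6017 for Tspan8 and 1.1286 for Wt1. With the detection covariate they were -0.2339 for Col1a1, -0.3079 for Myh7, 0.2359 for Nppa and 0.2405 for Tnnt2. Nppa was at 0.0348 with upper quartile factors, 0 (to 4 decimals) with DESeq2 and its size factors, 0.0052 with quality weights and 0.0449 under the replicate block. Myh7 was at -0.0293 with limma-voom and -0.0032 under the block, and Irf7 at -0.4644 with quality weights. With 1 library left out the ranges were -0.2056 to 0.519 for Col1a1, -0.2784 to 0.134 for Myh7, -0.1999 to 0.1914 for Nppa, -0.067 to 0.1699 for Nppb, -0.3734 to 0.1315 for Tnnt2, -0.6548 to 2.2593 for Irf7 and -0.0464 to 2.2054 for Usp18. The cause was not tested. Of the tested genes, 219 had no count in MI 2, 3 and 4, and 121 of these had at least 5 counts in every Sham library.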
